A study of Homo sapiens with 60 samples.

Results

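The 39 genes described here encode long coiled-coil proteins of the Golgi apparatus and the centrosome. They were chosen by family and symbol, with earlier results of these data known, and are 39 of the 60675 genes in the deposited table. By role, 12 encode golgins, 11 encode proteins of the pericentriolar material or the centriolar satellites, 9 encode proteins of the centriole's appendages, and 7 encode proteins of the centriole itself or of the linker between centrioles. RNA was sequenced from SW1783, an established human astrocytoma cell line, in 60 libraries. Cells had been exposed for 24 h to a herbal extract at a high, a medium or a low dose, each dose being 5 times the next lower, or to the vehicle dimethyl sulfoxide. Water extracts of the decoctions Yijin-tang and Soshiho-tang, and ethanol extracts of Zizyphi Semen, Longan Arillus and Liriopis seu Ophiopogonis Tuber, were used at 500, 100 and 20 µg/mL. The ethanol extract of Schisandrae Fructus was used at 310, 62 and 12.4 µg/mL, that of Polygalae Radix at 30, 6 and 1.2 µg/mL, and that of Aucklandiae Radix at 160, 32 and 6.4 µg/mL. Soshiho-tang had 2 libraries at each dose, Polygalae Radix and Aucklandiae Radix had 1, and all other groups, the vehicle included, had 3. The vehicle is given as 0.1% in the sample labels and as 2% in the design text. The question was how these genes' RNA at the high and medium dose differed from that extract's low dose, which shared its library set. It was also asked how the difference related to transcript length and base content. Library sets are read from the first part of the library names, and the labels do not say what that part marks.

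Golgins are anchored to Golgi membranes at one end and extend a long coiled-coil rod into the cytoplasm, where they catch vesicles and hold the stacked cisternae together. At the centrosome, coiled-coil scaffolds organise the pericentriolar material around a pair of centrioles, which nucleates microtubules, builds the spindle poles in dividing cells and templates the primary cilium. Coiled-coil proteins are rich in lysine and glutamate, whose codons are rich in adenine.

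All 39 genes passed the filter on low counts, among 17851 genes tested. Total counts lay between 18.73 M and 35.52 M per library, with a median of 25.79 M, where M is the mega prefix. Levels are CPM, the count scaled to a library of 1 M, with TMM scaling, a correction for library composition, and sums over lists are CPM without it. The labels do not say whether libraries of a group came from separate cultures, so p-values measure the spread between these libraries, and fewer cells carrying an RNA cannot be told apart from less of it per cell. Of 10 astroglial markers, CD44 (2805 CPM in the vehicle), VIM (4768 CPM), SOX9 (83.5 CPM), SLC1A3 (30.8 CPM) and NES (6.53 CPM) were present, whereas GFAP, S100B, AQP4, FABP7 and SOX2 were near 0, with GFAP reaching at most 0.313 CPM in any library. In the vehicle, CEP135, which builds the cartwheel at the base of the centriole, had the highest level per kilobase of transcript (40.3 ± 1.97 CPM per kb, SD, n = 3), ahead of the appendage gene ODF2 (37.5 ± 1.08). SPICE1, a centriole duplication factor, had the lowest (1.71 ± 0.21).

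The coding sequences of the group are long and rich in adenine. By the representative GENCODE 29 transcript of each gene (GRCh38), the median coding sequence of the 39 genes was 4218 bases long with 34.1% adenine and 42.2 GAA triplets per kb, against 1392 bases, 25.7% and 22.9 per kb over 13826 protein-coding genes tested. Within the group the adenine share ran from 23.1% in CEP131 to 42.0% in CEP290. The 7 sequences below are the 150 coding bases at the midpoint of the coding sequence, 5′ to 3′ on the gene's strand, with each GAA in capitals in any reading frame. They were picked after the values were seen, to set the 4 genes with the largest falls under Zizyphi Semen (AKAP9, GOLGA4, CEP290 and GOLGB1) beside an adenine-rich golgin that was not called in the same comparison (TMF1) and 2 golgins with little adenine that rose under another extract (GOLGA2 and GOLGA3).
AKAP9: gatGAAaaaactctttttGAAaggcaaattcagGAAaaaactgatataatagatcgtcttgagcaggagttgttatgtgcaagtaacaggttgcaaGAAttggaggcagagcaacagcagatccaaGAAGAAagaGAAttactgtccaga
GOLGA4: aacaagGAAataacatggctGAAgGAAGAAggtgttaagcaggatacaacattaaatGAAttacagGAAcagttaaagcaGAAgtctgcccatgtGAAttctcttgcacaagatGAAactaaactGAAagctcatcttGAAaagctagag
CEP290: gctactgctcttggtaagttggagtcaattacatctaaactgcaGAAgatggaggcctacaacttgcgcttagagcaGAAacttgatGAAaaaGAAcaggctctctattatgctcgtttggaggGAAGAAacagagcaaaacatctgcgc
GOLGB1: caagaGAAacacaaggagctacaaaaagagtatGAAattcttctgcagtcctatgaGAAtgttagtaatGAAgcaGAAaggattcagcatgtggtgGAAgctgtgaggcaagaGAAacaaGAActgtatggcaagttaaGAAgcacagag
TMF1: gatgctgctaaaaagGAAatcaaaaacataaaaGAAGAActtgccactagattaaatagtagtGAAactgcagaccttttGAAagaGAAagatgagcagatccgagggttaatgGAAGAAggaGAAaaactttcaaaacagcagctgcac
GOLGA2: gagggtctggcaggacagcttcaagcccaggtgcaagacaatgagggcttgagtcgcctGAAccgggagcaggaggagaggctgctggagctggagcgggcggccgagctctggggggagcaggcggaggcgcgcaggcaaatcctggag
GOLGA3: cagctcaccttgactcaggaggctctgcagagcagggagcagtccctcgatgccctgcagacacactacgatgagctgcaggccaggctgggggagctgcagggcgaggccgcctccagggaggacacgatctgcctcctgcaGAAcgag
The stretch of AKAP9 lies in exon 24 of 50 on the plus strand (chr7:92062294-92062443) and holds 7 GAA triplets. That of GOLGA4 lies in exon 14 of 24 on the plus strand (chr3:37325157-37325306) and holds 11, that of CEP290 in exon 31 of 54 on the minus strand (chr12:88089269-88089418) and holds 6, and that of GOLGB1 in exon 13 of 22 on the minus strand (chr3:121695546-121695695) and holds 9. The TMF1 stretch is spliced from exons 4 to 6 of 17 on the minus strand (chr3:69039665-69043764, introns included in the coordinates) and holds 9. GOLGA2 (exon 17 of 26, minus strand, chr9:128260564-128260713) and GOLGA3 (exon 11 of 24, minus strand, chr12:132795999-132796148) hold 1 each. Such a stretch is a sample of a long sequence: the CEP290 stretch has 32.7% adenine, less than the gene's whole coding sequence.

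Of the 39 genes, 31 were called in at least 1 of the 6 replicated high against low comparisons, at an adjusted p under 0.05 in edgeR's quasi-likelihood test over all 17851 genes. These calls came from Zizyphi Semen, Soshiho-tang, Schisandrae Fructus and Yijin-tang. At the medium doses of all 6 extracts no member was called by this test, where 0.0224% of all genes rose with Yijin-tang, 0.0112% fell with Soshiho-tang, 0.0280% rose and 0.0112% fell with Schisandrae Fructus, and none was called in the other cases. Unadjusted p-values under 0.05 at the medium dose were found in 10 members with Liriopis seu Ophiopogonis Tuber and in 2 with Schisandrae Fructus. These unadjusted counts are not set against all genes here, so they are not read as a change of the members. DESeq2 called none.

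**Figure D1:**
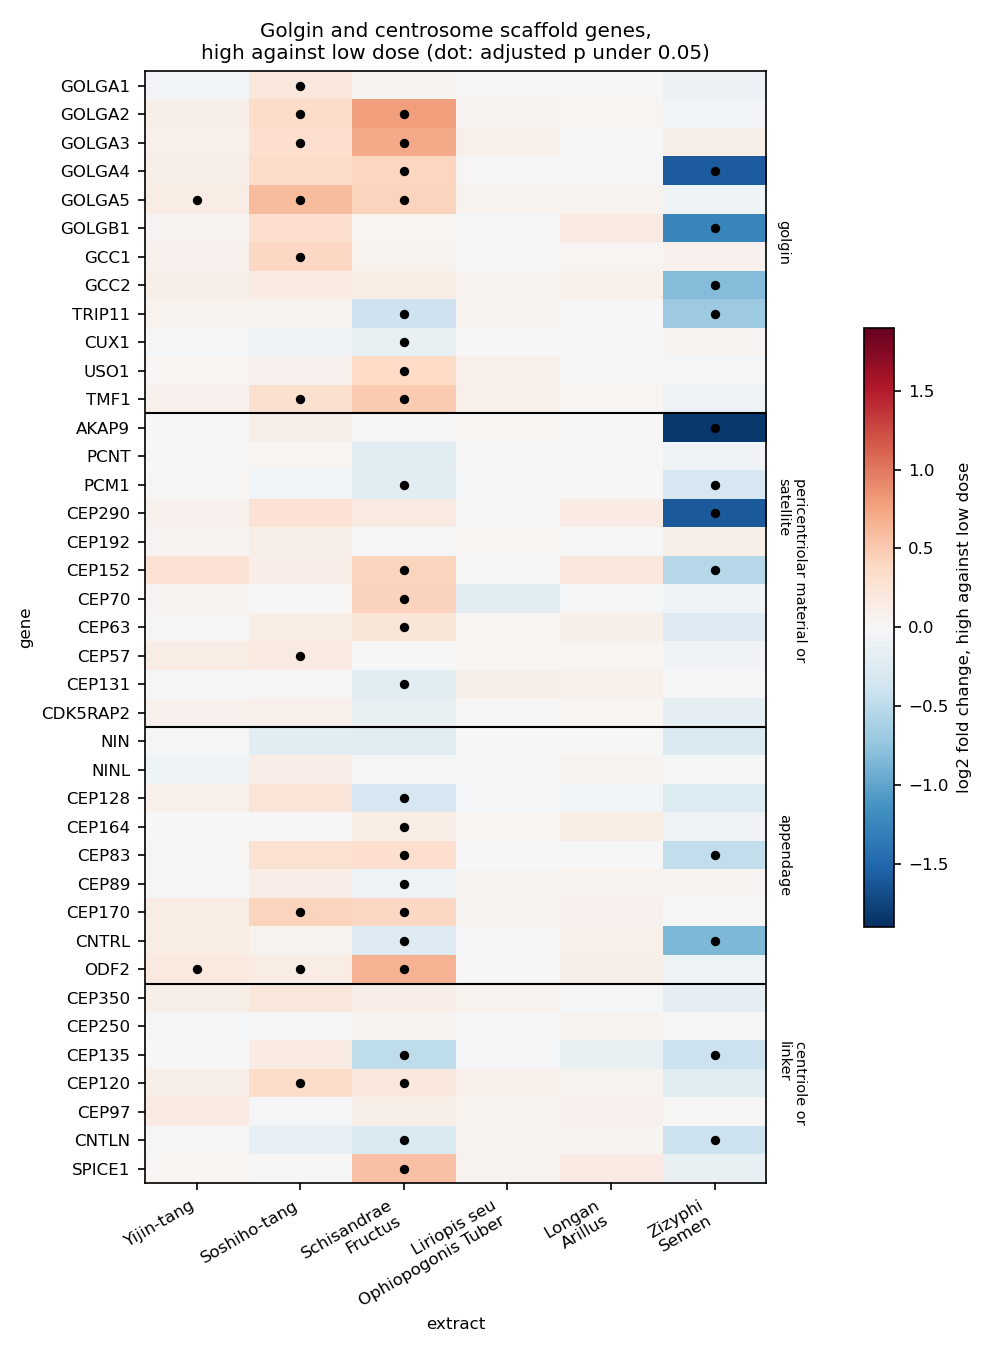
Log2 fold change of each gene (rows, grouped by role) between the high and the low dose of each of the 6 replicated extracts (columns), in colour, with a dot where the adjusted p was under 0.05. The darkest cells are the falls of AKAP9 (-1.84), CEP290 (-1.60), GOLGA4 (-1.59) and GOLGB1 (-1.24) with Zizyphi Semen.

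At the high dose of Zizyphi Semen, 12 members fell and none rose, where 3.65% of all genes tested fell and 2.31% rose. The median log2 fold change of the 39 genes was -0.11, beside 0.0037 over all genes, and the 27 members not called lay between -0.27 and 0.12. Of the 12 golgins, 4 fell. GOLGA4, a golgin of the trans-Golgi network on chromosome 3 (37243177 to 37366751, plus strand), was at 74.1, 36.8 and 44.5 CPM in the 3 high-dose libraries and at 156 CPM in each of the 3 low-dose libraries. It fell to 33.3% of the low dose (log2 fold change -1.59 ± 0.12, SE, adjusted p = 1.78e-13). GOLGB1 (giantin), the longest golgin, on chromosome 3 (121663199 to 121749767, minus strand), was at 32.5, 18.4 and 23.1 CPM against 49.7, 63.4 and 62.3 CPM, a fall to 42.3% (log2 -1.24 ± 0.14, adjusted p = 1.01e-08). For both genes every high-dose library was below every low-dose library, and replicate 1 of the high dose was the least changed.

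The other golgins that fell were GCC2, a trans-Golgi tether recruited by its GRIP domain, and TRIP11, a golgin of the cis-Golgi. GCC2 was at 17.7, 12.7 and 14.2 CPM against 25.9, 24.8 and 28.0 CPM (log2 -0.82 ± 0.08, adjusted p = 2.78e-10). TRIP11 was at 53.8, 37.6 and 39.2 CPM against 64.6, 73.2 and 73.1 CPM (log2 -0.69 ± 0.10, adjusted p = 1.71e-06). The groups did not overlap for either gene. The remaining 8 golgins were not called: GOLGA2, the cis-Golgi matrix golgin, was at 131, 131 and 142 CPM against 147, 139 and 133 CPM, with overlapping groups, and TMF1 had a log2 fold change of -0.10.

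Of the 11 genes of the pericentriolar material and satellites, 4 fell. AKAP9, which anchors protein kinase A and nucleates microtubules at the centrosome and the Golgi, lies on chromosome 7 (91940867 to 92110673, plus strand). It was at 54.3, 22.2 and 27.4 CPM against 119, 127 and 125 CPM and had the lowest log2 fold change of the group, -1.84 ± 0.13 (28.0% of the low dose, adjusted p = 1.78e-13). CEP290, a protein of the satellites and of the ciliary transition zone on chromosome 12 (88049014 to 88142216, minus strand), was at 17.0, 7.16 and 8.22 CPM against 30.5, 32.2 and 34.8 CPM (log2 -1.60 ± 0.14, adjusted p = 1.74e-11). High and low libraries were well apart for both, and replicate 1 of the high dose again lay highest of its group. CEP152, which recruits the kinase that starts centriole duplication, fell by 0.54 ± 0.12 on the log2 scale (12, 6.49 and 8.82 CPM against 13.1, 13.1 and 13.8 CPM, adjusted p = 0.00177). PCM1, the organiser of the satellites, fell by 0.32 ± 0.08 (108, 93.8 and 97.1 CPM against 113, 128 and 132 CPM, adjusted p = 0.00552). These 2 calls depended on single libraries: CEP152 was not called without replicate 2 of the high dose, and PCM1 without that library or without replicate 3 of the low dose. PCNT (pericentrin) and CDK5RAP2, which hold the microtubule nucleators, were not called, with log2 fold changes of -0.07 and -0.16.

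Among the appendage genes 2 of 9 fell. CNTRL (centriolin), needed for the last step of cell division, was at 11.5, 10.8 and 11.0 CPM against 16.4, 22.5 and 21.2 CPM (log2 -0.85 ± 0.11, adjusted p = 6.59e-07), and CEP83, which starts the distal appendages, fell by 0.46 ± 0.10 (adjusted p = 0.00311). Of the 7 genes of the centriole and linker, CEP135 and the linker gene CNTLN fell. CEP135 was at 184, 155 and 164 CPM against 211, 226 and 233 CPM (log2 -0.41 ± 0.06, adjusted p = 1.09e-06), and CNTLN was at 23.1, 21.0 and 20.4 CPM against 29.9, 28.8 and 27.3 CPM (log2 -0.41 ± 0.05, adjusted p = 6.38e-07). High and low libraries did not overlap in any of these 4 genes. All 12 falls were also called against the vehicle, where AKAP9 had a log2 fold change of -1.85 and GOLGA4 of -1.73. Further members were called down there as well, and of 17851 genes 1292 fell and 1025 rose. The vehicle libraries form a set of their own, so treatment and set cannot be told apart in that comparison. At the medium dose AKAP9 was at 111, 111 and 120 CPM, and GOLGA4 at 146, 141 and 153 CPM, which did not pass the test.

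**Figure D2:**
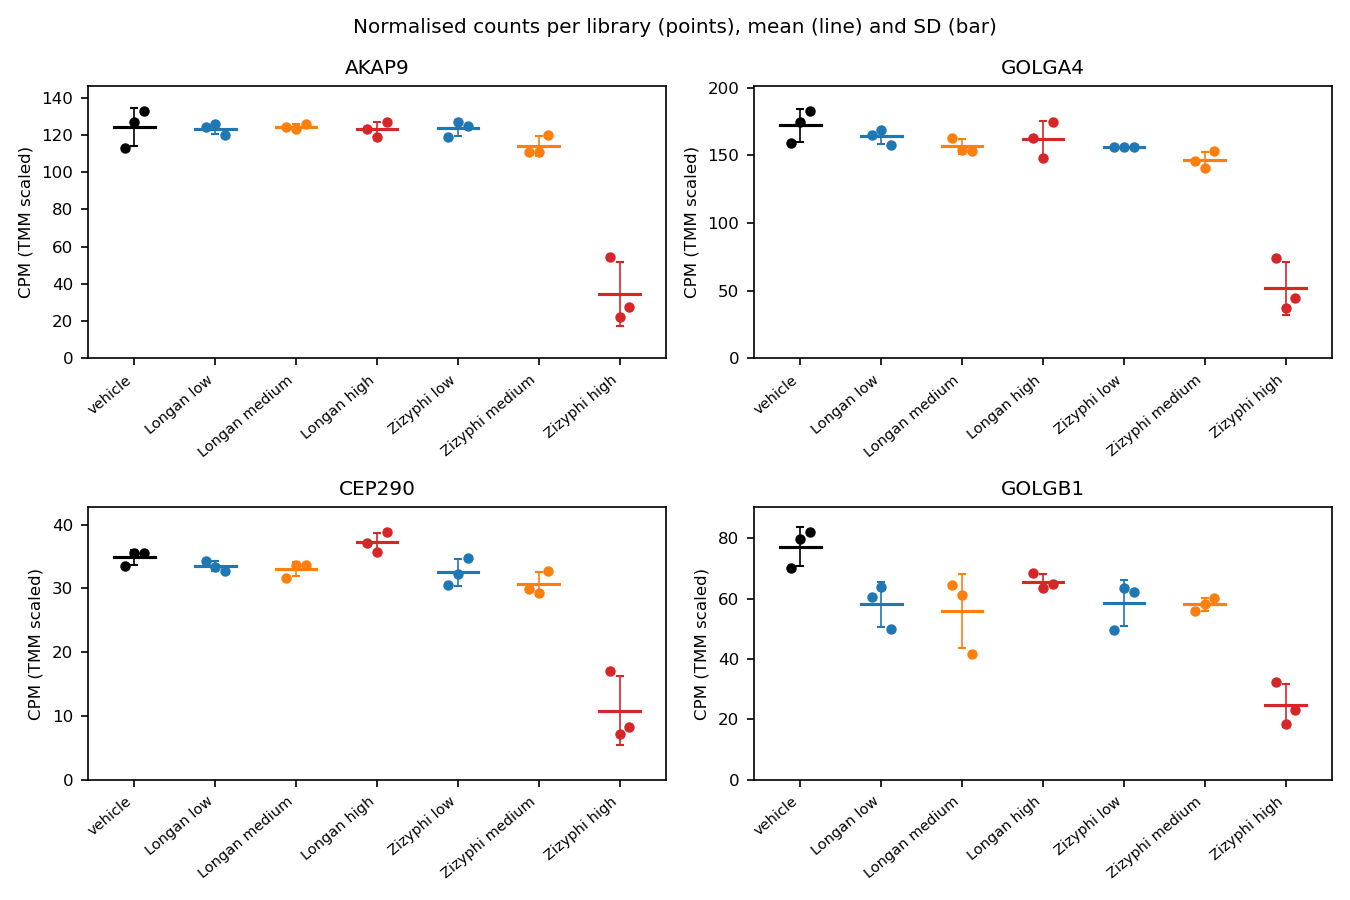
CPM of AKAP9, GOLGA4, CEP290 and GOLGB1 (one panel each, axis from 0) in every library of the vehicle and of the 3 doses of Longan Arillus and Zizyphi Semen. Points are libraries, lines are means and bars are SD. In each panel the 3 high-dose Zizyphi Semen libraries lie below all others (54.3, 22.2 and 27.4 CPM for AKAP9).

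The size of the fall was compared with the length and base content of each gene. Across the 39 genes the Zizyphi Semen log2 fold change had a Spearman correlation of -0.81 (Pearson -0.67) with the adenine share of the coding sequence and of -0.85 (Pearson -0.72) with GAA triplets per kb. With the GC share of the coding sequence it was 0.66, with that of the transcript 0.49, with coding length -0.35 (Pearson -0.57) and with transcript length -0.14 (Pearson -0.28). These are descriptions over genes measured in the same libraries, and genes are not independent replicates. The adenine and GAA measures were chosen after the data were seen. Over 13832 genes tested with a coding sequence, the Spearman correlation with the adenine share was -0.13 and with coding length 0.10, and over 17716 genes with a transcript it was 0.20 with transcript length, the opposite sign of the members' values for length. The members' Spearman correlation with coding length was -0.37 for Schisandrae Fructus, beside -0.04 over the 13832 genes. For Aucklandiae Radix, with 1 library per dose, it was -0.39, near the -0.33 over the same genes.

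Counts by adenine share show the same order. All 8 members with at least 38% adenine (CEP135, TRIP11, AKAP9, CNTLN, GOLGA4, GCC2, CEP83 and CEP290) fell, as did 4 of the 9 with 35% to under 38% (PCM1, CEP152, CNTRL and GOLGB1). None of the 22 members under 35% was called against the low dose, though some were called down against the vehicle. Other protein-coding genes tested gave a shallower series in the same libraries: 40.6% of the 165 genes with at least 38% adenine fell, 19.2% of the 501 with 35% to under 38%, and 2.6% of the 13121 under 35%. The members with a long coding sequence but less adenine were not called: PCNT (10008 coding bases, 26.9% adenine), CEP350 (9351, 34.9%), CEP192 (7611, 30.4%) and CEP250 (7326, 28.2%) had log2 fold changes of -0.07, -0.17, 0.12 and -0.03. Of the 18 members under 3500 coding bases 2 fell, CEP83 (2103 coding bases, 40.9% adenine) and CEP135 (3420, 38.6%). From 35% to under 38% adenine, the 4 members that fell had 4962 to 9777 coding bases. The 5 not called in that range had 1500 to 3282. The part of length in the falls was not tested. TMF1, with 36.5% adenine and 50.3 GAA triplets per kb, was the one gene among the 10 members richest in GAA that was not called.

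**Figure D3:**
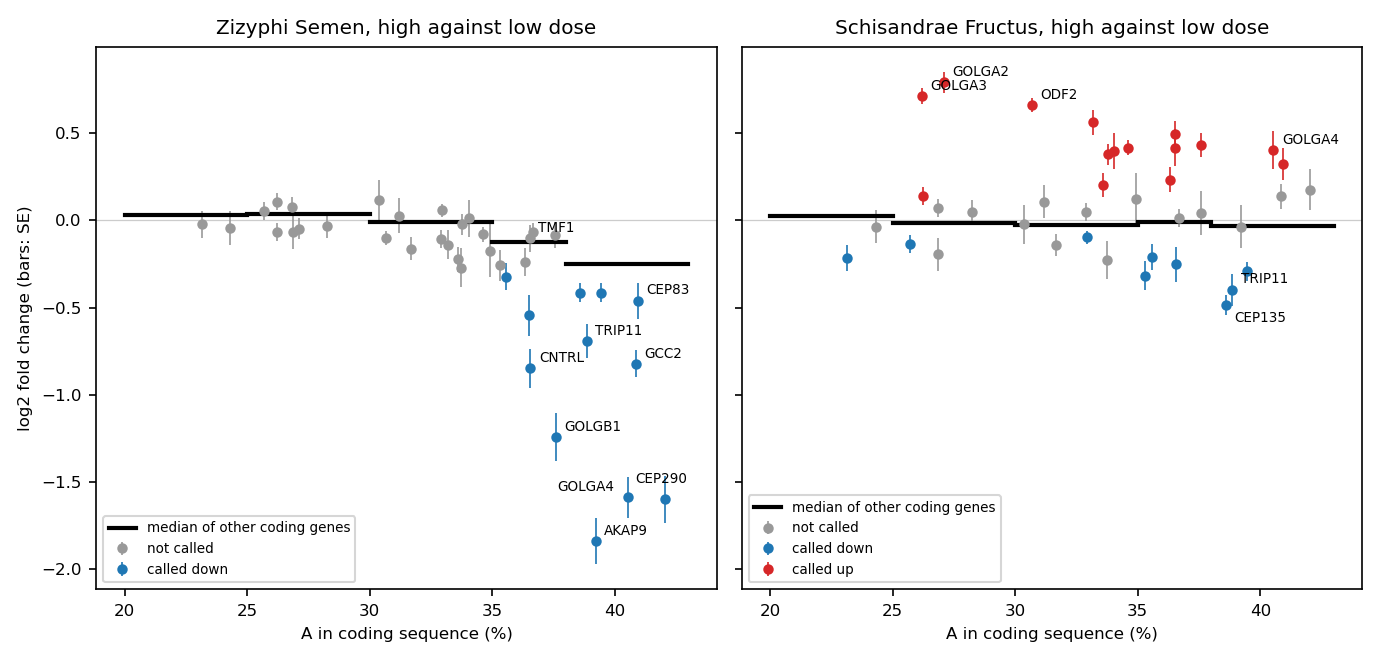
Log2 fold change at the high against the low dose (vertical axis, bars are SE) against the adenine share of the coding sequence (%, horizontal axis) for the 39 genes, with Zizyphi Semen on the left and Schisandrae Fructus on the right. Black lines are medians of other protein-coding genes in bins of adenine share. On the left, all 8 genes at 38% or more are called down, whereas on the right 2 of these 8 are called up and 3 down. Of 165 other protein-coding genes at that share, 40.6% were called down with Zizyphi Semen. With Schisandrae Fructus 23.0% of them were called up and 20% down.

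The same relation was computed for the other extracts. The Spearman correlation of the members' log2 fold change with adenine share was 0.23 for Yijin-tang, 0.19 for Soshiho-tang, -0.04 for Schisandrae Fructus, -0.10 for Liriopis seu Ophiopogonis Tuber and -0.06 for Longan Arillus. Of the 8 adenine-rich members, none fell with Yijin-tang, Soshiho-tang, Liriopis seu Ophiopogonis Tuber or Longan Arillus, and 3 fell and 2 rose with Schisandrae Fructus. Of the 165 other protein-coding genes with at least 38% adenine, 0.61%, 6.06%, 0% and 0% fell with the first 4 extracts, in that order. With Schisandrae Fructus 20% of them fell and 23.0% rose. The absence of falls with the first 4 was thus near the share in other genes. Relative to the low-dose mean, these 8 genes had a median log2 deviation of -0.47, -0.97 and -0.86 in the 3 high-dose Zizyphi Semen libraries, against -0.07, -0.14 and -0.08 for the other 31 members. A per-library trend on the adenine share of the whole transcript was also taken out, an alternative added after the data were seen. With Zizyphi Semen 8 members were then called down, 7 of them among the 12, where 551 of 17851 genes were called down. AKAP9 was at -1.41, CEP290 at -1.16 and GOLGA4 at -1.15, and CEP135 (0.00) and CNTLN (0.04) changed sign.

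Genes that work with the members were examined from lists chosen with earlier results known, and those named have the lowest adjusted p of their list and direction. Of 52 other Golgi genes, such as tethers, small GTPases and SNAREs, 2 rose (ARF3, log2 0.19, and COG6, 0.22) and 1 fell (GOLIM4, -0.23) with Zizyphi Semen. This list has a median adenine share of 28.6%. Of 60 other centrosome genes, with a median of 31.7%, none rose and 13 fell, led by CEP162 (-0.91), CEP112 (-0.62) and CENPJ (-0.48). Of 35 coiled-coil genes of other compartments, with a median of 36.2%, 1 rose (the myosin MYH9, 0.23) and 19 fell, led by the kinetochore motor CENPE (-2.44), the kinesin KIF20B (-1.03) and the kinetochore protein CENPF (-1.24). Of 19 mitotic genes, 3 fell (TOP2A, -0.30, MKI67, -1.02, and NDC80, -0.34), and their summed level was 1877 to 1985 CPM at the high dose and 2184 to 2246 CPM at the low. Among 4 RNAs retained in the nucleus all fell, led by NEAT1 (-1.06), and their sum was 1743 to 2073 CPM against 2912 to 3325 CPM. The part of these shifts in the members' falls was not tested. Mitochondrial RNA took 14.2% to 16.0% of counts at the high dose and 13.8% to 15.4% at the low.

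Longan Arillus was given at the same doses in the same library set, and the difference between its high against low change and that of Zizyphi Semen was tested directly. It was called for 12 members, all higher with Longan Arillus, where 2.50% of all genes were called in that direction and 1.46% in the other. The largest differences were in AKAP9 (log2 1.83 ± 0.18, adjusted p = 3.30e-09), CEP290 (1.75 ± 0.18), GOLGA4 (1.57 ± 0.16) and GOLGB1 (1.41 ± 0.19). AKAP9 was at 123, 119 and 127 CPM at the high dose of Longan Arillus and at 124, 126 and 120 CPM at its low dose, so the groups overlapped there. The other genes called were CNTRL (0.94), GCC2 (0.91), CEP152 (0.76), TRIP11 (0.69), CEP83 (0.47), CNTLN (0.46), CEP135 (0.28) and ODF2 (0.22), whereas PCM1 was not called. The calls of CEP135, CEP83 and ODF2 were each lost without several of the single libraries, among them replicate 3 of the high or the low dose of Longan Arillus.

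With Soshiho-tang the members called at the high dose were all higher than at the low dose. Of 39 members 10 rose and none fell, where 10.0% of all genes rose and 8.62% fell, and the median log2 fold change was 0.12 for the members and 0.0020 for all genes. Of the 12 golgins 6 rose, with a median of 0.31. GOLGA5, a golgin anchored in the membrane by its own tail, on chromosome 14 (92794231 to 92839963, plus strand), was at 88.1 and 84.3 CPM in the 2 high-dose libraries and at 56.2 and 57.8 CPM in the low-dose ones (log2 0.60 ± 0.05, adjusted p = 4.00e-12). GCC1, a trans-Golgi golgin, was at 40.5 and 40.6 CPM against 31.0 and 30.7 CPM (log2 0.40 ± 0.07, adjusted p = 9.04e-06). High and low libraries were separate in both genes.

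GOLGA2, which with its partner USO1 tethers vesicles at the cis-Golgi, was at 173 CPM in both high-dose libraries and at 136 and 135 CPM in the low-dose ones (log2 0.35 ± 0.07, adjusted p = 4.40e-04). GOLGA3, a golgin on chromosome 12 (132768909 to 132828858, minus strand), was at 122 and 128 CPM against 99.5 and 100 CPM (log2 0.32 ± 0.06, adjusted p = 5.29e-05). TMF1 (0.30) and GOLGA1 (0.21) rose as well. Outside the golgins CEP170, a subdistal appendage protein (0.42), CEP120, which elongates centrioles (0.34), CEP57 (0.17) and ODF2 (0.14) rose. Part of this count rested on single libraries, and it was lower whichever of the 4 was left out, which leaves 1 library in a group. The CEP57 and ODF2 calls were lost in all 4 such fits, where their log2 fold changes lay from 0.133 to 0.213 and from 0.117 to 0.166. The CEP170 and TMF1 calls were lost in 3 of the 4, and that of GOLGA1 in 2. GOLGA2 and GOLGA5 were also higher than the vehicle (0.46 and 0.51, both called), whereas GOLGA3 (0.13) and TMF1 (-0.04) were not called against it. GOLGA2 and CEP170 have close copies elsewhere in the genome, and the expected counts share out reads that match several genes, so their levels are uncertain.

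Genes that work with the members moved both ways with Soshiho-tang. Of the 52 other Golgi genes 15 rose and 3 fell, led by the GTPase ARF4 (0.76). Of the 60 other centrosome genes 8 rose and 2 fell, led by CEP41 (0.27), and of the 35 coiled-coil genes elsewhere 2 rose and 5 fell. The 19 mitotic genes gave 14 falls and no rise, led by KIF20A (-0.66), and their sum was 1897 to 1925 CPM at the high dose against 2323 to 2409 CPM at the low. Summed marker lists were lower at the high dose for epithelium (77.05 to 84.55 CPM against 142.6 to 144.6), microglia (8.43 to 8.76 against 12.7 to 13.2) and neurons (41.4 to 42.0 against 50.5 to 51.9). They were higher for oligodendrocytes (7.72 to 8.18 against 5.69 to 6.75) and endothelium (36.0 to 38.9 against 31.9 to 32.9). In the vehicle the epithelial, endothelial and oligodendrocyte sums were mostly KRT18 (112.1 CPM), KDR (32.56 CPM) and MBP (6.391 CPM). Of the same lists, EPCAM, CDH1, CDH5, VWF, MOG, MAG and OLIG1 were near 0, so these sums are not read as other cell types. The part of these shifts in the members' changes was not tested. Yijin-tang, the other decoction, was given at the same dose in the same set, and there ODF2 rose by 0.19 ± 0.04 on the log2 scale (adjusted p = 0.00149) and GOLGA5 by 0.15 ± 0.04 (adjusted p = 0.0263), where 3.67% of all genes rose and 3.30% fell. ODF2 was at 103, 98.1 and 104 CPM against 86.3, 92.4 and 87.8 CPM. The GOLGA5 call was lost without replicate 1 or 2 of the low dose or replicate 3 of the high dose. Tested against each other, the decoctions differed in 3 members, all higher with Soshiho-tang (GOLGA5, 0.45 ± 0.07, GCC1, 0.32 ± 0.08, and GOLGA1, 0.26 ± 0.08), where 5.09% of all genes were called in that direction and 4.29% in the other. The GOLGA1 call was lost in 7 of 10 fits that left out 1 library.

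With Schisandrae Fructus at 310 µg/mL 15 of the 39 members rose and 9 fell. Over all genes 22.7% rose and 23.3% fell, so the count of falls was near the background, and the median was 0.07 for the members against 0.0027 for all genes. GOLGA2, on chromosome 9 (128255829 to 128275995, minus strand), was at 205, 229 and 235 CPM against 126, 129 and 131 CPM, a rise of 1.73-fold (log2 0.79 ± 0.06, adjusted p = 1.93e-14). GOLGA3 was at 163, 166 and 170 CPM against 101, 101 and 103 CPM (log2 0.71 ± 0.05, adjusted p = 4.88e-16). The high-dose libraries of both genes lay far above all low-dose ones.

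Of the other golgins TMF1 (0.50), GOLGA5 (0.42), GOLGA4 (0.40) and USO1 (0.38) rose, whereas TRIP11 fell by 0.40 (56.7, 54.3 and 55.9 CPM against 76.3, 71.7 and 71.8 CPM, adjusted p = 3.93e-04) and CUX1 fell by 0.14. CUX1 also encodes a transcription factor, and the gene count does not separate its golgin transcript. ODF2, a scaffold that appendages are built on, on chromosome 9 (128455186 to 128501292, plus strand), had the lowest adjusted p of the group: it was at 139, 147 and 139 CPM against 89.8, 88.0 and 91.5 CPM (log2 0.66 ± 0.04, adjusted p = 2.57e-17). SPICE1 (0.56), CEP70 (0.43), CEP152 (0.42), CEP170 (0.40), CEP83 (0.32), CEP63 (0.23), CEP120 (0.20) and CEP164 (0.14) also rose. Against the vehicle the rises of GOLGA4, CEP152, CEP170, CEP83, CEP120 and CEP164 were not called.

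CEP135 had the deepest fall of the group with this extract, to 146, 150 and 164 CPM from 217, 212 and 216 CPM (log2 -0.49 ± 0.06, adjusted p = 1.05e-09). CNTLN was at 22.0, 20.8 and 21.7 CPM against 26.6, 25.9 and 26.6 CPM (log2 -0.29 ± 0.05, adjusted p = 1.18e-05), and CEP128, a subdistal appendage protein, fell by 0.32 (adjusted p = 0.00205). Smaller falls were called in CNTRL (-0.25), the satellite genes CEP131 (-0.22) and PCM1 (-0.21), and CEP89 (-0.10). In 6 fits that each left out 1 library these calls were lost in 4, 2, 3 and 3 fits, in that order. High and low libraries did not overlap in any gene called. Without replicate 1 of the low dose only 4 falls were called. Against the vehicle 9 members were called up and 12 down, where 4288 of 17851 genes were called up and 4624 down.

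**Figure D4:**
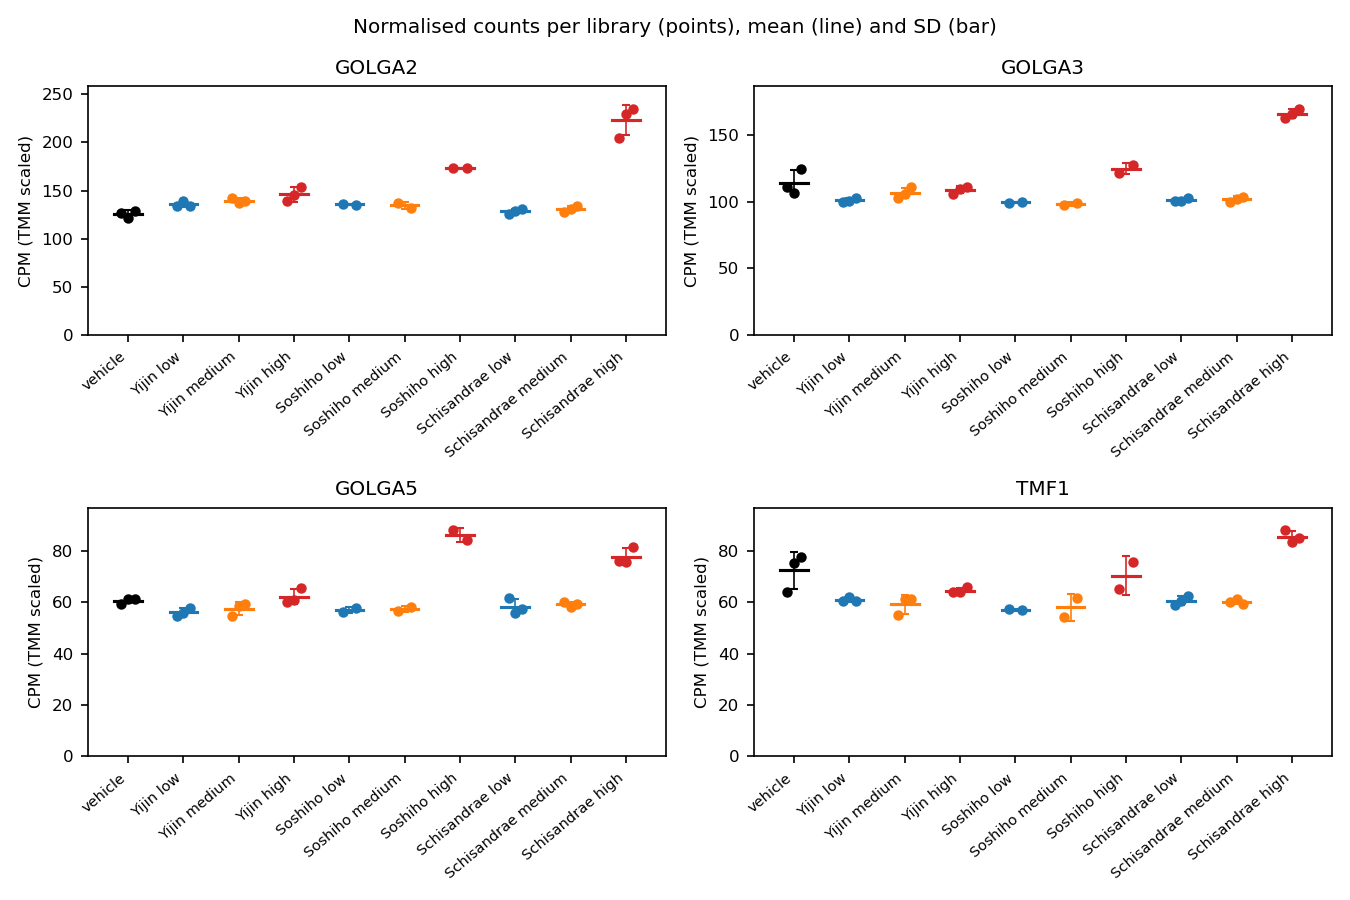
CPM of the golgins GOLGA2, GOLGA3, GOLGA5 and TMF1 (one panel each, axis from 0) in every library of the vehicle and of the 3 doses of Yijin-tang, Soshiho-tang and Schisandrae Fructus. Points are libraries, lines are means and bars are SD. The high doses of Soshiho-tang and Schisandrae Fructus lie above their own low and medium doses, at 173 and at 205 to 235 CPM for GOLGA2.

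Other genes of the same structures also moved both ways with Schisandrae Fructus: 23 of 52 Golgi genes rose and 7 fell, led by COG6 (0.94), and 23 of 60 centrosome genes rose and 8 fell, led by the rise of HAUS6 (0.52) and the fall of CEP41 (-0.38). Of 19 mitotic genes 14 rose and 1 fell, and their sum was 2577 to 2665 CPM against 2297 to 2333 CPM. Its part in the members' changes was not tested. The summed neuronal markers were lower at the high dose (23.7 to 28.3 CPM against 52.0 to 55.3), and so were those of microglia (3.92 to 4.46 against 11.1 to 13.6) and epithelium (77.2 to 95.7 against 118.7 to 132.9). Those of oligodendrocytes (9.22 to 9.70 against 5.17 to 6.07) and endothelium (39.7 to 43.8 against 33.4 to 34.1) were higher. In the vehicle the epithelial, oligodendrocyte and endothelial sums were mostly KRT18, MBP and KDR, so they are not read as other cell types. In the vehicle the neuronal markers SYT1 and SNAP25 were at 26.15 and 27.97 CPM, and the microglial markers PTPRC and CSF1R at 9.507 and 3.447 CPM. The other markers of both lists were lower, with STMN2 at most 0.193 CPM and AIF1 at most 0.0476 CPM in any library. The part of these marker sums was not tested either. The extract's change was tested against that of Liriopis seu Ophiopogonis Tuber of the same set, whose high dose was 500 µg/mL and so differed. It was higher in 9 members, led by ODF2 (0.66 ± 0.06) and GOLGA2 (0.74 ± 0.09), and lower in 5, led by CEP135 (-0.47 ± 0.08), where 15.2% and 15.8% of all genes were called. Without replicate 2 of the high dose of Liriopis seu Ophiopogonis Tuber, 3 members were lower. The CEP152 difference (0.42) lost its call in 8 of 12 fits that left out 1 library.

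Several members were called with more than 1 extract. GOLGA5 and ODF2 rose with Yijin-tang, Soshiho-tang and Schisandrae Fructus. GOLGA2, GOLGA3, TMF1, CEP120 and CEP170 rose with the last 2 of these. TRIP11, PCM1, CEP135, CNTRL and CNTLN fell with Schisandrae Fructus and Zizyphi Semen, whereas GOLGA4, CEP152 and CEP83 rose with the former and fell with the latter. These 3 rises with Schisandrae Fructus were not called against the vehicle. With that extract the CNTRL and PCM1 calls were lost in 4 and 3 of 6 fits that left out 1 library. The CEP135 and CNTLN falls with Zizyphi Semen were lost with the adenine correction. With Soshiho-tang the ODF2 call was lost whichever library was left out. GOLGA4 was at 190, 186 and 216 CPM with Schisandrae Fructus against 150, 145 and 152 CPM at its low dose, the reverse of its order with Zizyphi Semen. The 8 genes called in no high against low comparison were PCNT, NIN, NINL, CEP350, CEP250, CEP192, CEP97 and CDK5RAP2.

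Liriopis seu Ophiopogonis Tuber left the members within a narrow range at 500 µg/mL, from -0.20 in CEP70 to 0.12 in CEP131, with a median of 0.03. None was called by edgeR, where 0% of all genes were called in either direction, and 1 member had an unadjusted p under 0.05 (456 of all genes). Longan Arillus gave values from -0.13 in CEP135 to 0.22 in CEP152, with 0 members called, where 0.353% of all genes rose and 0.515% fell. An unadjusted p under 0.05 was found in 3 members, a count not set against all genes here. DESeq2 also called no member with either extract. In the medium-dose group of Longan Arillus replicate 3 stood apart, with GOLGA2 at 169 CPM against 131 and 127 CPM and CEP192, which recruits pericentriolar material in mitosis, at 19 CPM against 32.8 and 30.8 CPM.

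Polygalae Radix and Aucklandiae Radix had 1 library per dose, so their differences have no replicate check. At 30 µg/mL of Polygalae Radix against 1.2 µg/mL, 7 members were at least 1.5-fold higher and 5 at least 1.5-fold lower, where 24.2% of all genes were that much higher and 26.0% lower. CEP350 had the largest positive difference (81.3 against 39.1 CPM, log2 difference 1.06) and USO1 the largest negative one (33.4 against 64.8 CPM, -0.96). CEP135 was at 371 against 221 CPM, and GOLGA2 at 86.7 against 143 CPM. In that library mitochondrial RNA took 20.3% of counts against 14.2%, mitotic genes summed to 1566 against 2218 CPM, and the nuclear-retained RNAs to 5663 against 3486 CPM. At 160 µg/mL of Aucklandiae Radix against 6.4 µg/mL no member was that much higher and 5 were lower, where 14.0% and 19.5% of all genes were. CNTRL was the lowest (6.08 against 19.8 CPM, -1.69), followed by CEP192 (-0.93), CEP152 (-0.81), CDK5RAP2 (-0.75) and CEP97 (-0.60). Mitotic genes summed to 761.9 against 2121 CPM there, the nuclear-retained RNAs to 5332 against 3085 CPM, and mitochondrial RNA took 10.1% of counts against 14.9%. The part of these shifts in the members' differences was not tested for either extract. At the medium doses of both extracts no member was 1.5-fold apart from the low dose, where 5.41% of all genes were higher and 5.34% lower with Polygalae Radix, and 5.25% and 7.30% with Aucklandiae Radix. The members' differences with Polygalae Radix had a Spearman correlation of -0.12 with adenine share.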

How the data were processed

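Polyadenylated RNA of 60 libraries of SW1783 cells was sequenced as 100-base read pairs from a directional kit, per the labels' protocols. The authors deposited gene-level expected counts, with FastQC 0.11.9, Trim Galore 0.6.5, STAR 2.7.3a, RSEM 1.3.3 and the build hg38 named in the submitters' processing notes. Neither the annotation nor the strand option used for counting is stated (not given in the sources used here), so reads of overlapping or near-identical genes may be split between them.

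Of the deposited values 10.86% were not whole, and all were rounded. One model held the 54 libraries from 19 groups with replicates, in R 4.3.3 with edgeR 4.0.16: filterByExpr, TMM scaling (trimmed mean of M values), and the quasi-likelihood test on 35 residual degrees of freedom, with Benjamini-Hochberg adjustment over all 17851 genes tested and a threshold of 0.05. Fold changes and errors of replicated groups come from this fit, and log2 differences between single libraries use a prior count of 2. Differences between extracts of a library set were tested as interaction contrasts. Single libraries were compared at a fold of 1.5 with no test. The procedure was tested on simulated data.

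Alternatives were DESeq2 1.42.0, RLE scaling, no filter on low counts, only the libraries compared, other prior counts, a replicate block, a length and GC correction, the vehicle as reference, and leaving out each library. Named members were up to 4 rises and 4 falls with the lowest adjusted p per comparison, those called the same way in at least 3 comparisons, and those called in an interaction. Other members are named to account for the whole group. The members and gene lists were chosen with earlier results of these data known. The adenine and GAA measures, their bins, the printed sequences and the adenine correction were chosen after seeing the data. Gene positions and transcripts are from GENCODE 29 on GRCh38, the build of the files.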

Additional observations from a re-analysis of the deposited data

Results flagged for a closer look

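Extracts of the same library set differed in 29 tests on single members, each a difference between the high against low changes of a pair of extracts that passed the adjusted threshold of 0.05 in edgeR's quasi-likelihood test. With Longan Arillus less Zizyphi Semen, both at 500 µg/mL, the golgins GOLGA4, GOLGB1, GCC2 and TRIP11 differed by 1.57, 1.41, 0.91 and 0.69 on the log2 scale. AKAP9, CEP290 and CEP152 of the pericentriolar material and satellites differed by 1.83, 1.75 and 0.76. The appendage genes CNTRL, CEP83 and ODF2 differed by 0.94, 0.47 and 0.22, and the centriole and linker genes CNTLN and CEP135 by 0.46 and 0.28.

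With Soshiho-tang less Yijin-tang, both at 500 µg/mL, GOLGA5, GCC1 and GOLGA1 differed by 0.45, 0.32 and 0.26, and GOLGA1 lost its call in 7 of 10 fits that left out 1 library. With Schisandrae Fructus at 310 µg/mL less Liriopis seu Ophiopogonis Tuber at 500 µg/mL, the golgins GOLGA2, GOLGA3, TMF1, GOLGA5 and USO1 differed by 0.74, 0.62, 0.39, 0.35 and 0.28. In the same contrast ODF2, CEP70, SPICE1 and CEP152 differed by 0.66, 0.63, 0.49 and 0.42, the last of which lost its call in 8 of 12 fits that left out 1 library. The lower members were CEP135 at -0.47, TRIP11 at -0.46, CNTLN at -0.35, CEP131 at -0.33 and CEP89 at -0.15.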

How the results depend on the processing

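Counts of members called stayed within 1.5 times the reported ones under DESeq2, RLE scaling and the replicate block, but single calls changed. DESeq2 gave 9 rises with Soshiho-tang (CEP57 lost), 8 falls with Schisandrae Fructus (CEP89 lost), 13 falls with Zizyphi Semen and 4 rises in Soshiho-tang less Yijin-tang. Over all 17851 genes these were 1645 rises, 3971 falls, 624 falls and 885 rises. RLE scaling gave 8 rises with Soshiho-tang (CEP57 and ODF2 lost) and 11 in Longan Arillus less Zizyphi Semen (CEP83 lost). Over all genes these were 1718 and 439 rises. Same-numbered libraries did not deviate together (1 of 17 pairs had a correlation over 0.1). The replicate block gave 9 rises with Soshiho-tang (ODF2 lost) and 13 falls with Zizyphi Semen. It gave 4 rises in Soshiho-tang less Yijin-tang and 11 in Longan Arillus less Zizyphi Semen (CEP83 lost). Over all genes these were 1848 rises, 708 falls, 971 rises and 467 rises. Other prior counts left the single-library counts as reported. Without the filter on low counts, Yijin-tang gave 0 rises and Soshiho-tang less Yijin-tang gave 1. Over all 38487 genes then tested these were 588 and 786 rises. With only the libraries compared, Soshiho-tang gave 17 rises and 1 fall, and Soshiho-tang less Yijin-tang gave 6 rises. The calls over all genes rose as well. Of 16293 genes 2564 rose and 2405 fell with Soshiho-tang, beside 1785 and 1538 of 17851 in the main fit. In Soshiho-tang less Yijin-tang 1416 of 16899 genes rose, beside 909 of 17851. With the length and GC correction, Yijin-tang gave 4 rises and Schisandrae Fructus less Liriopis seu Ophiopogonis Tuber 14. Over all genes these were 978 and 3173 rises, beside 656 and 2715 in the main fit. Medians of the members with this correction were 0.14 for Soshiho-tang, 0.12 for Schisandrae Fructus and 0.018 for the medium dose of Yijin-tang. With the adenine correction, medians were 0.13 for Soshiho-tang, 0.105 for Schisandrae Fructus and 0.017 for the medium dose of Zizyphi Semen; CEP135 (0.003) and CNTLN (0.041) reversed with Zizyphi Semen, as they did in Longan Arillus less Zizyphi Semen (-0.15 and -0.01). With the vehicle as reference, which is a library set of its own, the high doses gave 3 falls (median -0.037) for Yijin-tang, 6 rises and 5 falls (0.056) for Soshiho-tang with TMF1 reversed at -0.039, 9 rises (-0.009) for Schisandrae Fructus, 1 rise and 2 falls (-0.11) for Liriopis seu Ophiopogonis Tuber, 3 rises and 7 falls (-0.07) for Longan Arillus, and 25 falls (-0.34) for Zizyphi Semen. The medium doses gave 8 falls (-0.118), 1 rise and 4 falls (-0.159), 4 falls (-0.101), 3 rises and 2 falls (-0.06), 1 rise and 19 falls (-0.185), and 12 falls (-0.169), in the same order of extracts. Over all 17851 genes the high doses gave 1492, 2641, 4288, 269, 1051 and 1025 rises in that order. Their falls were 1994, 2797, 4624, 440, 1714 and 1292. Over all genes the medium doses gave 749, 243, 397, 784, 1756 and 1016 rises and 1668, 475, 533, 1421, 2710 and 1471 falls. Leaving out 1 library gave 1 to 2 rises for Yijin-tang, 5 to 7 rises (median 0.121 to 0.149) for Soshiho-tang, 4 to 8 falls (median 0.052 to 0.094) for Schisandrae Fructus, 3 to 6 falls for Schisandrae Fructus less Liriopis seu Ophiopogonis Tuber, medians of -0.035 to 0.078 for the high dose of Liriopis seu Ophiopogonis Tuber and of -0.042 to 0.018 for the medium dose of Zizyphi Semen, and 10 to 15 falls for the high dose of Zizyphi Semen. Each call was refitted without each library in turn, which gave 610 values. Of these values 83 were no longer called and none was reversed. The same call can be counted several times among them. The cause of these shifts was not tested. The number of libraries, 2 or 3 a group, limits the smaller changes.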
